A study of Mus musculus with 12 samples.

Results

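Potassium channel subunits other than the Kcnq family were examined in the superior cervical ganglion (SCG), which holds sympathetic neurons of the neck. The list held 48 genes, taken by gene name and not by a rule on their values, though with earlier results of these data known. Of these, 47 were measured, among the 18193 genes of the array with a probe set of their own, and Kcnb2 was not analysed here. Where a gene had several probe sets, the brightest, by its mean over the 12 arrays, was used. Total RNA came from CD1 mice. The 2D group was SCG cells kept flat in dishes for 5 days, the 3D group was such cells kept inside porous polystyrene scaffolds for 5 days, and the tissue group was freshly dissected SCG. Each of the 3 groups had 4 biological replicates, and the labels name no drug or engineered allele in any of them. Both kinds of culture shared collagenase digestion, a collagen coating and a medium with serum and nerve growth factor, none of which the tissue had received. A dish or scaffold received on average the cells of 2 ganglia, without sorting, so each culture array read neurons together with the other cells of the ganglion. The labels give an age of 21 days, whereas the methods name neonatal mice. The labels name polystyrene for the 2D dish and the methods name a glass bottom.

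Potassium channels let potassium leave the cell and so set the resting potential, end the action potential and limit repetitive firing. Voltage-gated (Kv) pores open on depolarisation, inward rectifiers and two-pore leak channels act near rest, and calcium-activated or sodium-activated pores answer the ions that enter during firing. Sympathetic neurons are known for a fast transient current, called A-type, that delays the first spike and is carried by Kv4 pores and by Kv1 pores that inactivate quickly.

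The deposited unit was the log2 level given by RMA (robust multichip average), so a difference of 1 is a 2-fold change. RMA gives no detection call. Levels of different probe sets cannot be set against each other, so each gene was compared with itself across groups. Pairs of groups were tested with limma, adjusted by the Benjamini-Hochberg method over all 45037 probe sets, with a threshold of 0.05. Errors are SDs over 4 arrays. Differences are given on the log2 scale with their standard errors.

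The RNA of all 3 groups held strong signal of sympathetic neurons, but the arrays differed in it. Th, which codes for the first enzyme of noradrenaline synthesis, read between 9.59 and 12.44 in 2D, between 9.44 and 10.63 in 3D and between 11.05 and 13.45 in tissue. The mean of 14 sympathetic genes, Th among them, ran from 9.47 to 11.27 in 2D, 9.62 to 10.57 in 3D and 10.93 to 12.46 in tissue. Of the 14, 12 had a higher mean in tissue than in 2D. Npy (-0.84) and Phox2a (-0.60) had a lower one, and neither passed. The mean level of 15 pan-neuronal genes ran from 10.3 to 11.82 in 2D, from 10.73 to 11.49 in 3D and from 10.88 to 12.4 in tissue. It was lowest of all arrays on 2D replicate 4, which also had the highest level of 11 leukocyte genes (9.11) and of 10 smooth muscle and pericyte genes (9.8). Among the 3D arrays, replicate 1 had the highest pan-neuronal level (11.49). The 10 skeletal muscle genes averaged 5.34 on tissue replicate 1, no higher than the highest culture array, and 9.08, 7.51 and 9.21 on tissue replicates 2, 3 and 4. Tissue replicates 2 and 3 also had a narrower spread of values over the array (SD 2.14 and 1.93, against 2.31 to 2.42 on the others). Of 9 genes of dividing cells, 9 fell in tissue against each culture. In bulk RNA, fewer cells of a type and less RNA per cell cannot be told apart, and the part of cell composition in the differences below was not tested.

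**Figure D1:**
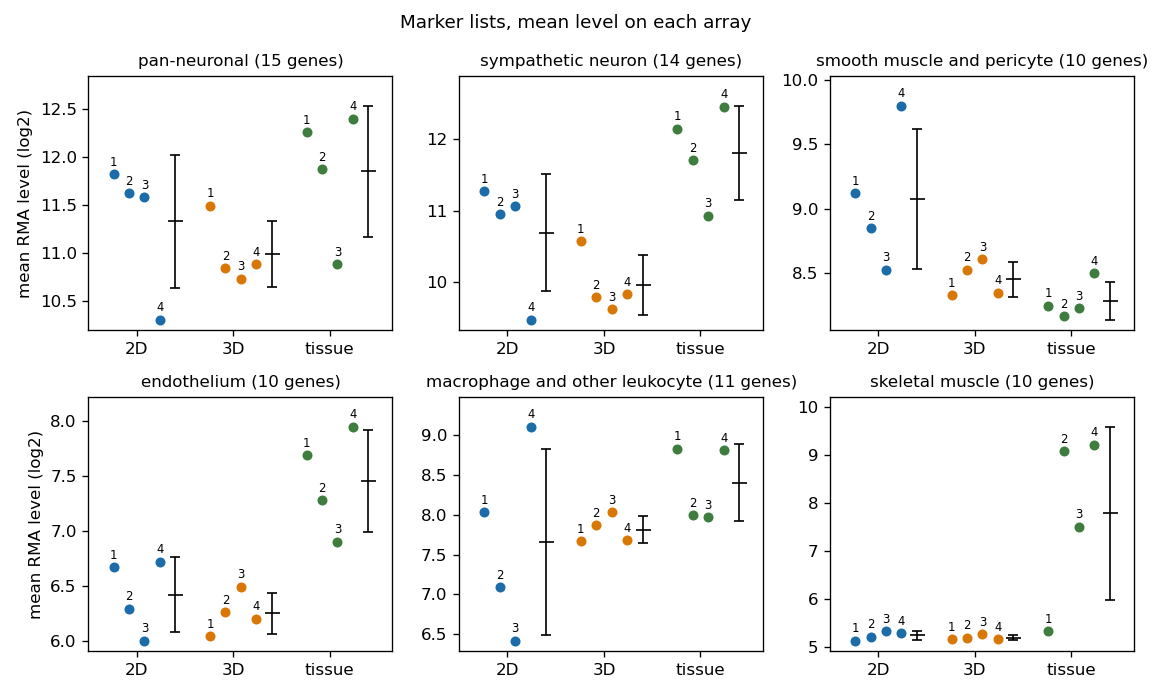
Mean RMA level (log2, vertical axis) of 6 lists of cell type markers on the arrays of 2D, 3D and tissue. Points are single arrays with their replicate numbers, and the bar beside the points is the mean and SD of 4 arrays. The pan-neuronal mean was lowest on 2D replicate 4 (10.3), and skeletal muscle genes were near culture levels on tissue replicate 1 (5.34) but not on the other tissue arrays.

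The genes that moved most in tissue belonged to the A-type channels, and they moved in opposite directions. For some of the genes that passed the threshold in tissue against both cultures, the 250 bases before the RefSeq transcription start (GRCm38.p6) are printed. These genes are Kcnd2, which rose in tissue, and Kcna4, Kcnk5 and Kcnn4, which fell. Letters run 5′ to 3′ on the strand of the gene, and capitals mark the GC box GGGCGG on either strand (CCGCCC on the other), a match to the motif of the general factor Sp1.
Kcnd2 (chr6:21215096-21215345, plus strand): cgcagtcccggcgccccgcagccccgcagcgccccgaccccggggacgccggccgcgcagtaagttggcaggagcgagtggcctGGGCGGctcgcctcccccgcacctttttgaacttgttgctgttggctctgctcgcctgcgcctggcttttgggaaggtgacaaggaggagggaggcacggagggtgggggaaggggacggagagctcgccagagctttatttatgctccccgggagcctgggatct
Kcna4 (chr2:107290339-107290588, plus strand): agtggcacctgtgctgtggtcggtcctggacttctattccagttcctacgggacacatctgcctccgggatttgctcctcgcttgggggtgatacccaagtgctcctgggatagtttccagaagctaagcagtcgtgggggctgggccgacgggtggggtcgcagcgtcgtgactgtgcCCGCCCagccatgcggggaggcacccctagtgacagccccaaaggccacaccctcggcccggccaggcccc
Kcnk5 (chr14:20181783-20182032, minus strand): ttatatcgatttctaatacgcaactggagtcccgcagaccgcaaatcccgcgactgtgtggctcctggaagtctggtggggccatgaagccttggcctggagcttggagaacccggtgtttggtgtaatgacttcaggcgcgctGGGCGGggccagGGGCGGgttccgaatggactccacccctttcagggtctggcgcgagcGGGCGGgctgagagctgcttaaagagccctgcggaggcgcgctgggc
Kcnn4 (chr7:24370013-24370262, plus strand): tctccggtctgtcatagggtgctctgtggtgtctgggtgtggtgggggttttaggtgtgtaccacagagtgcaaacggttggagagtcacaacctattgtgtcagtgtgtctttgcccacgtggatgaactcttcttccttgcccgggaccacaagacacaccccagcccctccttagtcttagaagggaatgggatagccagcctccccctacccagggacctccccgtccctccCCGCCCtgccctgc
The Kcnk5 window held 3 such matches and each of the other printed windows 1. Of the 10 genes that passed against both cultures, 7 had a window. Among those not printed, the Kcna5 window held 0 matches. The windows of Kcnab2 held 1, 0 and 0, and those of Kcnk10 held 1 and 0. The same letters stood in 32.7% of the 32851 windows of that length in the RefSeq table, and in 27 of the 57 windows of the listed genes (47.4%), which covered 38 of the 47 measured genes. None of the 4 printed windows held the AP-1 letters TGANTCA (6.75% of all windows), the TATA letters TATAAA (12.4%) or the cyclic AMP element TGACGTCA (1.55%). GC content was 68.8% for Kcnd2, 65.2% for Kcna4, 62.8% for Kcnk5 and 58.8% for Kcnn4. These matches describe letters only, and binding was not measured.

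Across the 47 genes, 0 passed in the comparison of 3D with 2D, where 0.0165% of all genes did. Of the 47, 8 had an unadjusted p under 0.05 (17%, beside 13.1% of all genes), while the methods' t-test without adjustment called 6 (12.8%, beside 11.6%). In tissue against 2D, 8 rose and 3 fell, or 23.4% of the list, beside 24.1% of all genes (9.87% higher and 14.3% lower). In tissue against 3D, 14 rose and 5 fell, or 40.4%, beside 35.6% of all genes (15.5% higher and 20.1% lower). Both directions together, these shares lay near those of all genes. By direction, 17% of the list rose and 6.38% fell against 2D, and 29.8% rose and 10.6% fell against 3D, so rises made up a larger share than among all genes and falls a smaller one, with no test of that difference. The median difference was 0.18 against 2D and 0.25 against 3D, and 0.03 for all genes in both. The 2 tissue comparisons share the same 4 tissue arrays. Kcna4, Kcna5, Kcnd1, Kcnd2, Kcnab2, Kcnk3, Kcnk5, Kcnk10, Kcnn2 and Kcnn4 passed in both. In an F test over the 3 groups 19 of 47 passed (40.4%), beside 39.3% of all genes. Arrays of the compared groups did not overlap for 1 gene when 3D was set beside 2D, 12 when tissue was set beside 2D and 20 when it was set beside 3D, where 7.36%, 33.8% and 42.4% of all genes were so separated. A gene so separated has p = 0.0286 in an exact permutation test (two-sided), the smallest p that 70 splits of 8 arrays can give. Directions hold relative to the scaling. With each array centred on its bright probe sets, the median of all genes in tissue moved to 0.31, and 13 of the 47 genes were higher and 2 lower against 2D, and 15 higher and 4 lower against 3D. The shares so called were 27.7% higher and 4.26% lower against 2D (all genes 16.6% and 10.3%) and 31.9% higher and 8.51% lower against 3D (all genes 22.2% and 14.4%).

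**Figure D2:**
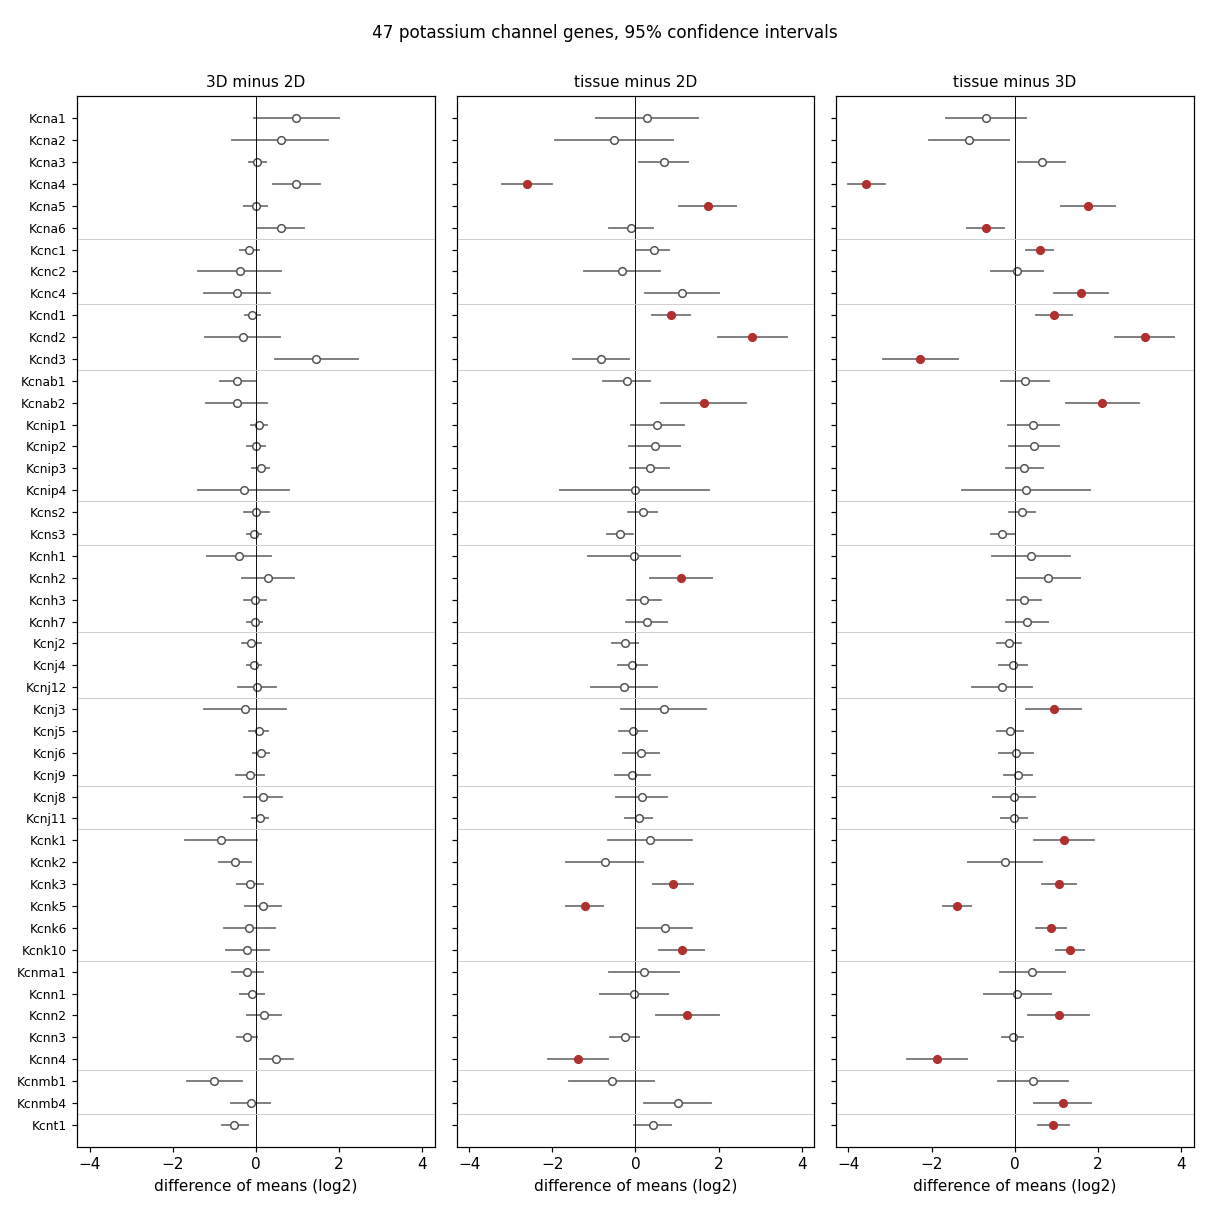
Difference of mean RMA levels (log2, horizontal axis) of the 47 measured potassium channel genes with panels for 3D against 2D, tissue against 2D and tissue against 3D. Circles mark limma estimates, horizontal lines span the 95% confidence interval, a filled circle has an adjusted p under 0.05, and thin rules separate the roles. No circle is filled between 3D and 2D, and Kcnd2 and Kcna4 lie farthest from 0 in tissue, at 2.81 and -2.60 against 2D.

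Kv4 pores carry the somatic and dendritic A-type current, and Kcnd2 (Kv4.2) rose most of the 47 genes in tissue. Its RMA level was 7.31, 6.81, 6.59 and 5.57 on 2D replicates 1 to 4, 7.09, 6.09, 5.76 and 6.05 on the 3D arrays, and 9.38, 9.97, 9.20 and 8.97 on the tissue arrays. Each tissue array thus lay above each culture array. Tissue stood above 2D by 2.81 (standard error 0.37, adjusted p = 0.00158), or 7.01-fold. The rise over 3D was 3.13 (standard error 0.31, adjusted p = 0.000176), or 8.77-fold. Of the other 3 probe sets of Kcnd2, 2 rose in both comparisons, by 1.66 and 1.67 against 2D. The dimmest was at 0.24 (adjusted p = 0.303).

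Kcnd1 (Kv4.1), a further Kv4 pore, was also higher in tissue. It read 7.48, 7.40, 7.24 and 7.39 in 2D, 7.36, 7.16, 7.31 and 7.32 in 3D, and 7.96, 8.10, 8.08 and 8.80 in tissue, where replicate 4 lay apart from the other tissue arrays. The groups did not overlap with tissue. The difference was 0.86 against 2D (standard error 0.20, adjusted p = 0.0181) and 0.95 against 3D (standard error 0.19, adjusted p = 0.00596). Without 2D replicate 2 the call against 2D was lost (adjusted p = 0.0522). The 2 dimmer probe sets of Kcnd1 did not pass against 2D (0.44, adjusted p = 0.0611, and 0.05, adjusted p = 0.784), and against 3D 1 rose (0.51, adjusted p = 0.0274) and 1 did not pass (-0.09, adjusted p = 0.525).

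Kcnd3 (Kv4.3), the remaining Kv4 pore, went the other way. Levels were 6.82, 6.66, 5.65 and 6.87 in 2D, 6.66, 8.40, 8.57 and 8.16 in 3D, and 5.66, 6.19, 5.43 and 5.41 in tissue. On 3D replicate 1 it read as in 2D, and the other 3D arrays were above every 2D and tissue array. Against 3D, tissue fell by 2.27 (standard error 0.40, adjusted p = 0.00304). The difference from 2D was -0.83 (standard error 0.30, adjusted p = 0.0767), and that of 3D from 2D was 1.45 (standard error 0.44, adjusted p = 0.283, 95% confidence interval 0.45 to 2.45). None of the other 3 probe sets of Kcnd3 passed, with differences of 0.19, 0.06 and -0.10 against 3D, so the fall was seen by 1 of 4 probe sets.

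**Figure D3:**
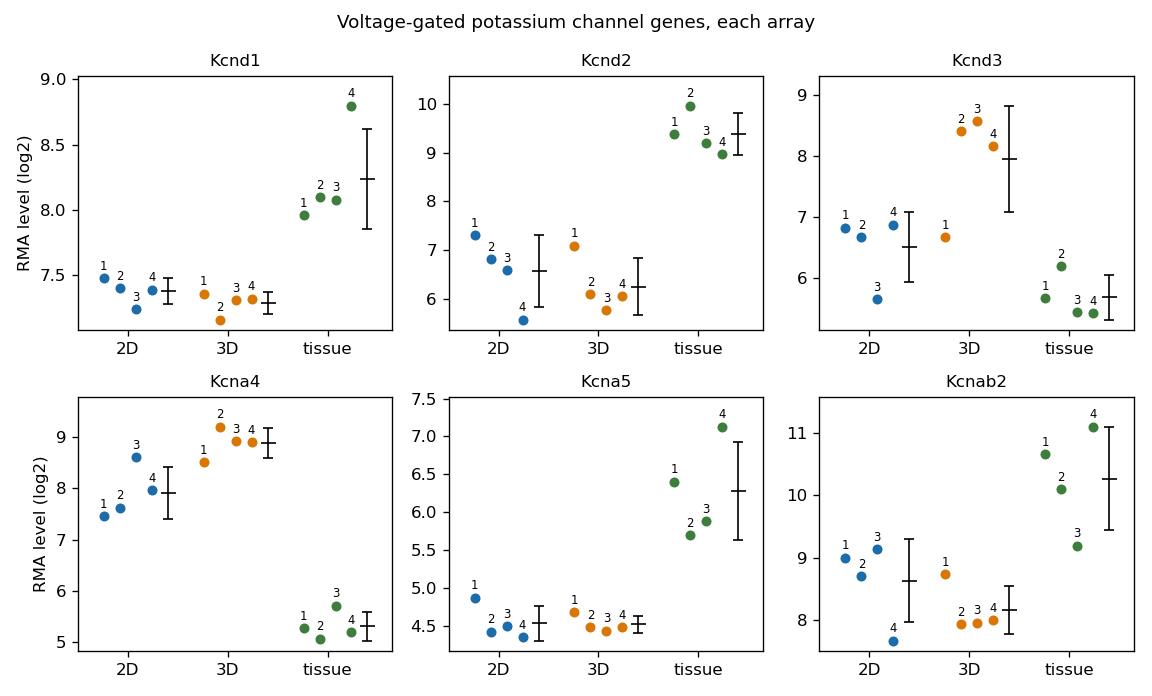
RMA level (log2, vertical axis) of the Kv4 pores Kcnd1, Kcnd2 and Kcnd3, the Kv1 pores Kcna4 and Kcna5 and the auxiliary subunit Kcnab2 on the arrays of 2D, 3D and tissue. Points are single arrays with their replicate numbers, and bars are the mean and SD of 4 arrays. Kcnd2 was between 8.97 and 9.97 in tissue and at most 7.31 in the cultures, whereas Kcna4 was at most 5.71 in tissue and at least 7.45 in the cultures.

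Among the 6 Kv1 pores, Kcna4 and Kcna5 moved in opposite directions in tissue against both cultures. Kcna4 (Kv1.4), the Kv1 pore that inactivates by itself, read 7.45, 7.62, 8.60 and 7.96 in 2D, 8.50, 9.20, 8.92 and 8.89 in 3D, and 5.27, 5.07, 5.71 and 5.19 in tissue. Tissue lay below all culture arrays, and the 2D and 3D arrays overlapped at 2D replicate 3. The fall was -2.60 against 2D (standard error 0.26, adjusted p = 0.000477), a 6.05-fold lower level, and -3.57 against 3D (standard error 0.19, adjusted p = 8.50e-06), an 11.9-fold lower level. A further probe set of Kcna4 fell by 0.90 against 2D (adjusted p = 0.0405) and by 2.04 relative to 3D (adjusted p = 0.000101). Between 3D and 2D the gene had the smallest adjusted p of the list, 0.221, with a difference of 0.97 (95% confidence interval 0.40 to 1.54).

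Kcna5 (Kv1.5), a slowly inactivating pore that smooth muscle and heart also use, was dim in the cultures. It read 4.87, 4.42, 4.49 and 4.35 in 2D, 4.68, 4.48, 4.43 and 4.48 in 3D, and 6.40, 5.69, 5.88 and 7.13 in tissue. All 4 tissue arrays were above all culture arrays. The rise was 1.74 against 2D (standard error 0.30, adjusted p = 0.00563) and 1.76 against 3D (standard error 0.29, adjusted p = 0.00210). On tissue replicates 1 to 4 the skeletal muscle genes averaged 5.34, 9.08, 7.51 and 9.21, and the endothelial genes 7.69, 7.28, 6.9 and 7.95. The smooth muscle and pericyte genes averaged 8.25, 8.17, 8.23 and 8.5 there, beside 8.53 to 9.8 in 2D and 8.33 to 8.61 in 3D. The part of these lists in the rise of Kcna5 was not tested.

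Kcna6 (Kv1.6), a delayed rectifier of neurons, fell in tissue against 3D by 0.70 (standard error 0.20, adjusted p = 0.0234), from 9.76 ± 0.34 to 9.05 ± 0.22. That call was lost without 3D replicate 2, 3 or 4, with cyclic loess (-0.29, adjusted p = 0.267) and with centring (-0.43, adjusted p = 0.133). Of the dimmer probe sets of Kcna6, 1 fell against 3D by 1.06 (adjusted p = 0.00242) and 1 was at 0.34 (adjusted p = 0.0968). Against 2D (9.16 ± 0.45) its difference was -0.11 (adjusted p = 0.742). The axonal pores Kcna1 (Kv1.1) and Kcna2 (Kv1.2) varied widely between replicates. Kcna1 was at 10.54 ± 0.96 in 2D, 11.51 ± 0.48 in 3D and 10.82 ± 0.88 in tissue, and Kcna2 was at 10.09 ± 1.17, 10.68 ± 0.28 and 9.58 ± 0.96. Both read lowest in their groups on 2D replicate 3 and tissue replicate 3. Neither passed, but a dimmer probe set of Kcna2 rose in tissue, by 0.78 against 2D (adjusted p = 0.0305) and 0.84 relative to 3D (adjusted p = 0.0110), while the one used was at -0.51 and -1.10. Kcna3 (Kv1.3), best known from lymphocytes, differed by 0.68 against 2D (adjusted p = 0.0867).

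The Kv3 pores open at high voltages and speed the end of the spike. Kcnc4 (Kv3.4), an A-type member of that family, read 10.31, 9.77, 10.23 and 8.70 in 2D, 9.79, 9.02, 9.10 and 9.25 in 3D, and 11.16, 10.92, 10.10 and 11.34 in tissue. Tissue was above all 3D arrays, but tissue replicate 3 lay within the range of 2D. The difference was 1.59 against 3D (standard error 0.29, adjusted p = 0.00332) and 1.13 against 2D (standard error 0.39, adjusted p = 0.0683). The dimmer probe set of Kcnc4 did not pass, at 0.54 against 3D (adjusted p = 0.205). Kcnc1 (Kv3.1) rose against 3D by 0.60 (standard error 0.14, adjusted p = 0.0126), from 6.74 ± 0.04 to 7.35 ± 0.23. Its difference from 2D was 0.44 (adjusted p = 0.0925), but 2 dimmer probe sets of Kcnc1 rose in both comparisons, by 0.88 and 1.27 against 2D, and a further one was at 0.17 against 3D (adjusted p = 0.542). Kcnc2 (Kv3.2) was at 6.27 ± 0.88 in 2D, 5.87 ± 0.54 in 3D and 5.93 ± 0.33 in tissue and passed in no comparison.

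Of the 6 auxiliary subunits of Kv channels, Kcnab2 passed. It codes for a cytoplasmic beta subunit that joins Kv1 pores and helps bring them to axons. Its level was 9, 8.70, 9.14 and 7.67 in 2D, 8.73, 7.93, 7.96 and 8 in 3D, and 10.66, 10.10, 9.19 and 11.10 in tissue. Tissue replicate 3 exceeded the highest 2D array (9.14) by little, and the other tissue arrays stood clear of both cultures. The rise was 1.64 against 2D (standard error 0.45, adjusted p = 0.0320) and 2.11 against 3D (standard error 0.39, adjusted p = 0.00370). A dimmer probe set of Kcnab2 was at 0.32 against 2D (adjusted p = 0.158) and rose over 3D by 0.48 (adjusted p = 0.0276). The call against 2D held in 2 of the 8 fits that left out 1 array and was lost without 2D replicate 1, 2 or 4 and likewise without tissue replicate 1, 2 or 4, with a difference between 1.32 and 1.99 over the 8 fits. The array order of Kcnab2 in tissue was that of the pan-neuronal mean, with replicate 4 highest (12.4) and replicate 3 lowest (10.88). The means of the sympathetic neuron genes (12.46 to 10.93) and of the endothelial genes (7.95 to 6.9) had the same order. The part of these lists in the result was not tested.

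Kcnab1, which codes for a beta subunit that can add fast inactivation to Kv1 pores, was at 9.24 ± 0.27 in 2D, 8.79 ± 0.32 in 3D and 9.04 ± 0.46 in tissue. The Kcnip genes code for calcium-binding proteins that tune Kv4 pores. Kcnip1, Kcnip2 and Kcnip3 had group means between 5.84 and 6.80, with differences of 0.53, 0.46 and 0.35 in tissue against 2D, and did not pass. A dimmer probe set of Kcnip3 rose, by 0.79 against 2D (adjusted p = 0.0173) and 0.77 relative to 3D (adjusted p = 0.0109). Kcnip4 had the widest spread of the list in tissue, at 11.16, 9.47, 7.83 and 11.13, around 9.90 ± 1.59, beside 9.92 ± 1.07 in 2D and 9.62 ± 0.41 in 3D.

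Kcns2 and Kcns3 code for silent subunits, which form no channel alone and modify Kv2 pores. Kcns3 read 6.10, 6.20, 6.21 and 6.35 in 2D, 6.10, 6.21, 6.12 and 6.19 in 3D, and 5.73, 5.72, 6.03 and 5.93 in tissue. All tissue arrays were below all culture arrays, yet the differences were -0.36 against 2D (adjusted p = 0.0899) and -0.30 relative to 3D (adjusted p = 0.0893). Kcns2 was at 5.73 ± 0.22 in 2D, 5.73 ± 0.18 in 3D and 5.91 ± 0.12 in tissue.

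In the EAG family, whose members range from slow pores to the ERG pores that repolarise heart and neurons, Kcnh2 (ERG1) passed against 2D. It read 8.60, 7.93, 8.98 and 8.30 in 2D, 8.08, 8.81, 9.22 and 8.82 in 3D, and 8.88, 9.85, 10.23 and 9.23 in tissue. The groups overlapped, since tissue replicate 1 lay below 2D replicate 3 and within 3D. The difference was 1.10 against 2D (standard error 0.33, adjusted p = 0.0435) and 0.81 against 3D (standard error 0.33, adjusted p = 0.0868). Between the cultures the difference was 0.28 (adjusted p = 0.734). The call held in 3 of 8 fits that left out 1 array, being lost without 2D replicate 1, 2 or 4 and likewise without tissue replicate 2 or 3. With tissue replicates 1 and 4 alone the difference was 0.60 (adjusted p = 0.191), and with tissue replicate 1 alone it was 0.43 (adjusted p = 0.565).

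Kcnh1 (EAG1) was at 8.12 ± 0.72 in 2D, 7.71 ± 0.33 in 3D and 8.10 ± 0.92 in tissue, and a dimmer probe set of Kcnh1 rose against 3D by 0.91 (adjusted p = 0.00444). Kcnh3 (ELK2) was at 8.09 ± 0.14 in 2D, 8.06 ± 0.19 in 3D and 8.29 ± 0.30 in tissue. Kcnh7 (ERG3) was at 6.04 ± 0.02 in 2D, 6 ± 0.12 in 3D and 6.31 ± 0.46 in tissue. None of these 3 passed.

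The inward rectifier pores Kcnj2, Kcnj4 and Kcnj12, which hold cells near the potassium potential, did not pass in any comparison. Kcnj2 (Kir2.1), with the smallest adjusted p of them, read 3.16, 3.44, 3.50 and 3.42 in 2D, 3.09, 3.24, 3.30 and 3.42 in 3D, and 3.28, 3.12, 2.98 and 3.13 in tissue. The groups overlapped at the low end of the scale (difference -0.25 against 2D, adjusted p = 0.208). Kcnj4 had group means between 5.68 and 5.76, and Kcnj12 was at 6.65 ± 0.40 in 2D, 6.67 ± 0.23 in 3D and 6.37 ± 0.70 in tissue.

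GIRK pores open when G proteins are released by receptors for noradrenaline or acetylcholine, and slow the neuron. Of the 4, Kcnj3 (GIRK1) rose against 3D. It read 9.10, 8.49, 8.07 and 6.86 in 2D, 8.44, 7.52, 7.61 and 7.92 in 3D, and 9.26, 8.68, 8.13 and 9.16 in tissue. Tissue replicate 3 lay below 3D replicate 1, so the groups overlapped. The difference was 0.94 against 3D (standard error 0.29, adjusted p = 0.0367) and 0.68 against 2D (standard error 0.46, adjusted p = 0.282). The call against 3D held in 2 of 8 fits that left out 1 array, and was lost without tissue replicate 1, 2 or 4 or 3D replicate 2, 3 or 4. Of the other 3 probe sets of Kcnj3, 1 rose against 3D, by 0.53 (adjusted p = 0.0150), and the remaining ones were at -0.10 (adjusted p = 0.898) and 0.40 (adjusted p = 0.0732). Averaged over its probe sets, Kcnj3 was at 0.44 against 3D (adjusted p = 0.155).

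Kcnj5, Kcnj6 and Kcnj9, the partners of Kcnj3 in GIRK channels, had group means between 5.67 and 6.48 and differences between -0.12 and 0.13 in tissue. A dimmer probe set of Kcnj6 rose against 2D by 0.83 (adjusted p = 0.0446). The KATP pores link firing to metabolism. Kcnj8 (Kir6.1), a pore of vascular muscle, read 6.50, 6.07, 6.42 and 5.60 in 2D, 6.49, 6.41, 6.30 and 6.06 in 3D, and 6.54, 6.51, 5.63 and 6.51 in tissue. The groups overlapped, with low values on 2D replicate 4 and tissue replicate 3. Kcnj11 (Kir6.2) was at 8.12 ± 0.03 in 2D, 8.21 ± 0.14 in 3D and 8.20 ± 0.18 in tissue, with a 95% confidence interval of the tissue difference from 2D of -0.24 to 0.39.

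Two-pore leak genes had the most calls of any role, with 2 higher and 1 lower of 6 against 2D and 4 higher and 1 lower against 3D. That is 50% and 83.3% of 6 genes, beside 24.1% and 35.6% of all genes, with no test of the difference. The Kv4 pores had larger shares, 66.7% and 100%, but of only 3 genes. Kcnk5 (TASK2), an acid-sensitive leak pore known from kidney and other epithelia, fell. It read 8.33, 7.64, 7.69 and 8.27 in 2D, 8.42, 8.04, 7.86 and 8.29 in 3D, and 6.81, 6.74, 6.81 and 6.68 in tissue. The tissue arrays lay together and below every culture array. The difference was -1.22 against 2D (standard error 0.19, adjusted p = 0.00364) and -1.39 against 3D (standard error 0.15, adjusted p = 0.000248), and a dimmer probe set of Kcnk5 was at -0.08 and -0.18 (adjusted p = 0.741 and 0.343).

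Kcnk10 (TREK2), a leak pore opened by stretch, heat and lipids, and Kcnk3 (TASK1), a pore closed by acid, rose. Kcnk10 read 7.57, 7.26, 7.12 and 6.41 in 2D, 7.12, 6.93, 6.61 and 6.86 in 3D, and 8.23, 8.20, 8.01 and 8.37 in tissue. All tissue arrays were above all culture arrays, by 1.11 against 2D in the mean (standard error 0.24, adjusted p = 0.0134) and 1.32 against 3D (standard error 0.15, adjusted p = 0.000321). Kcnk3 read 5.35, 5.71, 5.97 and 5.42 in 2D, 5.40, 5.64, 5.45 and 5.36 in 3D, and 6.80, 6.54, 6.06 and 6.70 in tissue. Tissue replicate 3 came close to 2D replicate 3, and no array overlapped. The rise was 0.91 against 2D (standard error 0.21, adjusted p = 0.0182) and 1.06 against 3D (standard error 0.18, adjusted p = 0.00236). The 2D call of Kcnk3 was lost without 2D replicate 1 or 4 and likewise without tissue replicate 2, and also with cyclic loess (0.67, adjusted p = 0.0931) and when its probe sets were averaged (0.24, adjusted p = 0.160). A dimmer probe set of Kcnk10 was at 0.18 against 2D (adjusted p = 0.511), and 2 of Kcnk3 were at 0.03 and -0.21 (adjusted p = 0.877 and 0.3).

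Kcnk6 (TWIK2) and Kcnk1 (TWIK1), weakly conducting pores, rose against 3D. Kcnk6 went from 5.98 ± 0.19 in 3D to 6.85 ± 0.24 in tissue, a difference of 0.87 (standard error 0.16, adjusted p = 0.00425). In 2D it was at 6.15 ± 0.60, where replicate 4 read 6.99, within the range of tissue. That array had the highest leukocyte and smooth muscle levels and the lowest pan-neuronal level, and their part in its value was not tested. The difference from 2D was 0.71 (adjusted p = 0.105), and without 2D replicate 4 Kcnk6 was called. Kcnk1 read 7.26, 7.18, 7.88 and 5.90 in 2D, 6.71, 5.89, 6.01 and 6.26 in 3D, and 7.73, 6.94, 6.81 and 8.15 in tissue. Tissue stood above 3D by 1.19 (standard error 0.32, adjusted p = 0.0205), with its dimmer probe set at 0.10 (adjusted p = 0.807). The call of Kcnk1 was lost without 3D replicate 2, 3 or 4 and when its probe sets were averaged (0.64, adjusted p = 0.110). Kcnk2 (TREK1), a stretch-activated relative of Kcnk10, was at 7.50 ± 0.33 in 2D, 6.99 ± 0.20 in 3D and 6.76 ± 0.90 in tissue and did not pass. In tissue it read 7.54 and 7.46 on replicates 1 and 4, and 6.33 and 5.69 on replicates 2 and 3, the arrays of narrower spread.

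**Figure D4:**
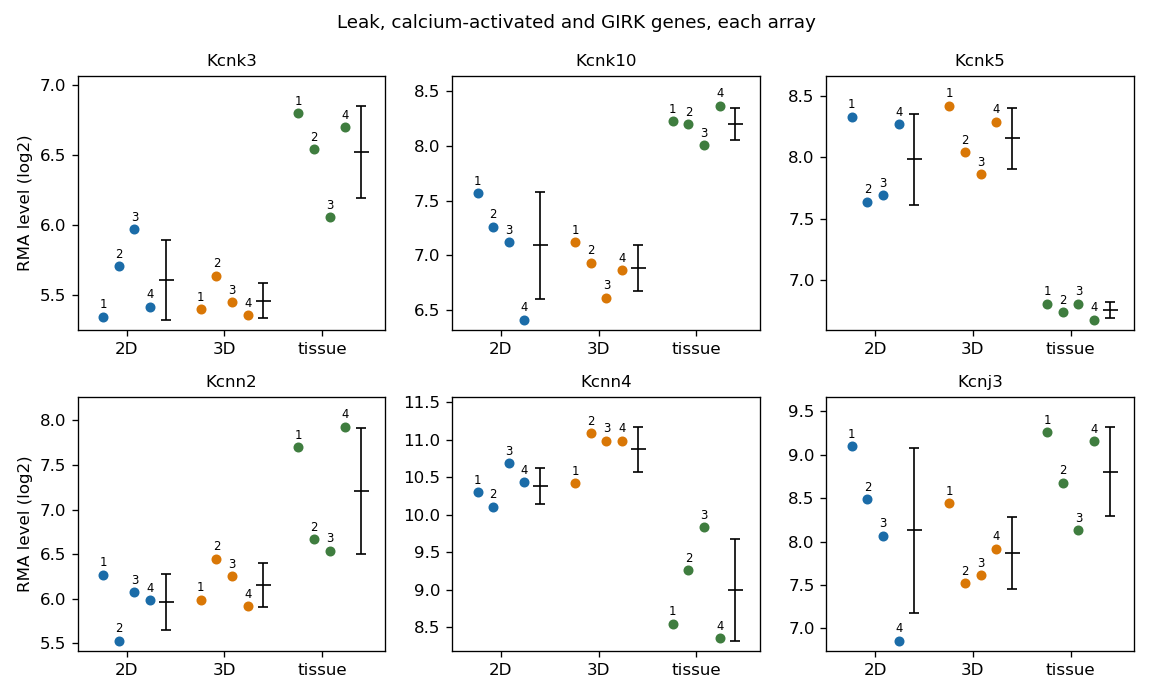
RMA level (log2, vertical axis) of the leak pores Kcnk3, Kcnk10 and Kcnk5, the calcium-activated pores Kcnn2 and Kcnn4 and the GIRK pore Kcnj3 on the arrays of 2D, 3D and tissue. Points are single arrays with their replicate numbers, and bars are the mean and SD of 4 arrays. Kcnk5 and Kcnn4 were lower in tissue than on every culture array, Kcnk3, Kcnk10 and Kcnn2 were higher, and Kcnj3 overlapped.

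Among the calcium-activated pores, Kcnn4 fell and Kcnn2 rose in tissue. Kcnn4 (the intermediate-conductance pore), known from lymphocytes, red cells and dividing fibroblasts, read 10.30, 10.11, 10.69 and 10.44 in 2D, 10.42, 11.09, 10.99 and 10.99 in 3D, and 8.55, 9.26, 9.84 and 8.36 in tissue. Every tissue array was below every culture array, with replicate 3 nearest to them. The difference was -1.38 against 2D (standard error 0.32, adjusted p = 0.0172) and -1.87 against 3D (standard error 0.32, adjusted p = 0.00272), and a dimmer probe set of Kcnn4 was at -2.64 and -3.49. The call of the brighter probe set against 2D did not hold with cyclic loess (-0.95, adjusted p = 0.156) or with centring (-1.10, adjusted p = 0.0551). The genes of dividing cells fell beside it, averaging 8.86 to 9.59 in the cultures and 5.33 to 6 in tissue, and their part in the result was not tested.

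Kcnn2 (SK2), a small-conductance pore that gives part of the slow potential after a spike, read 6.27, 5.53, 6.07 and 5.98 in 2D, 5.99, 6.45, 6.25 and 5.92 in 3D, and 7.70, 6.67, 6.54 and 7.93 in tissue. Tissue replicates 1 and 4 were clearly higher, and replicates 2 and 3 lay just above the cultures. The difference was 1.25 against 2D (standard error 0.34, adjusted p = 0.0306) and 1.06 against 3D (standard error 0.32, adjusted p = 0.0343). These calls held in 3 and 2 of 8 fits that left out 1 array, being lost without any 1 of the 2D or 3D arrays or without tissue replicate 1, and against 3D also without tissue replicate 4. Kcnn1 (SK1) was at 6.20 ± 0.24 in 2D, 6.10 ± 0.10 in 3D and 6.16 ± 0.81 in tissue, and Kcnn3 (SK3) at 6.13 ± 0.21, 5.92 ± 0.05 and 5.87 ± 0.08.

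Kcnma1, the pore of the large-conductance BK channel, was at 8.01 ± 0.35 in 2D, 7.80 ± 0.12 in 3D and 8.22 ± 0.79 in tissue with the probe set used (difference 0.21 against 2D, adjusted p = 0.690). Of its 4 dimmer probe sets, 2 rose in both tissue comparisons, by 1.69 (adjusted p = 0.0100) and 1.11 (adjusted p = 0.0302) against 2D. Kcnmb4, the neuronal BK auxiliary subunit, read 9.23, 8.78, 9 and 8.15 in 2D, 8.62, 8.60, 8.63 and 8.80 in 3D, and 10.12, 9.70, 8.91 and 10.51 in tissue. Tissue was above all 3D arrays, and replicate 3 lay within 2D. Tissue stood above 3D by 1.15 (standard error 0.30, adjusted p = 0.0190), a call lost without 3D replicate 2 or 3, and differed from 2D by 1.02 (standard error 0.36, adjusted p = 0.0690).

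Kcnmb1, the BK auxiliary subunit of smooth muscle, was the 1 gene whose 2D and 3D arrays did not overlap. It read 6.13, 6.10, 6.24 and 7.45 in 2D, 5.34, 5.35, 5.76 and 5.43 in 3D, and 5.26, 5.89, 7.11 and 5.38 in tissue. The difference of 3D from 2D was -1.01 (standard error 0.29, adjusted p = 0.262) and did not pass. A dimmer probe set of Kcnmb1 was at -0.07 (adjusted p = 0.773). On 2D replicate 4, where Kcnmb1 was highest, the smooth muscle and pericyte genes were also highest (9.8). That list averaged 8.53 to 9.8 in 2D and 8.33 to 8.61 in 3D. It was lowest of 2D on replicate 3 (8.53), where Kcnmb1 read 6.24. On tissue replicate 3 that list averaged 8.23 and Kcnmb1 read 7.11. Whether the list took part in the difference was not tested.

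Kcnt1 (Slack), the sodium-activated pore, read 7.94, 7.90, 7.99 and 7.40 in 2D, 7.29, 7.26, 7.45 and 7.16 in 3D, and 8.26, 8.38, 7.83 and 8.42 in tissue. Tissue lay above all 3D arrays, by 0.93 (standard error 0.16, adjusted p = 0.00271), and overlapped 2D at replicate 3 (0.42, adjusted p = 0.146). Both further probe sets of Kcnt1 rose against 3D as well, by 1.14 and 1.05. Between 3D and 2D the difference was -0.52 (standard error 0.14, adjusted p = 0.231), and without 2D replicate 4 it was -0.65 (adjusted p = 0.0433).

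The count of 0 between 3D and 2D changed when 2 arrays were left out. Without 2D replicate 4 and 3D replicate 1, 10 of the 47 genes passed (21.3%, beside 7.46% of all genes). These arrays were picked because they lay apart from their groups. They had the lowest pan-neuronal mean of 2D (10.3) and the highest of 3D (11.49), so leaving them out separates the groups in neuronal signal by construction. Kcna6 (0.92) and Kcnd3 (2.00) were higher in 3D, whereas Kcnc4 (-0.98), Kcnd2 (-0.94), Kcnab2 (-0.98), Kcnip4 (-0.99), Kcnh1 (-0.92), Kcnk1 (-1.39), Kcnmb1 (-0.64) and Kcnt1 (-0.65) were lower. On the arrays kept, the pan-neuronal mean was 11.82, 11.62 and 11.58 in 2D and 10.84, 10.73 and 10.88 in 3D, and the part of the neuronal level in these differences was not tested. 2D replicate 4 gave the lowest 2D value for 19 of the 47 genes (40.4%, beside 23.5% of all genes). Tissue replicate 3 gave the lowest tissue value for 22 (46.8%, beside 41.7%).

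Further potassium channel genes, outside the list, were counted as well. Of 31 measured of 40 listed, 7 rose and 0 fell against 2D (22.6%, beside 24.1% of all genes), and 9 rose and 3 fell against 3D (38.7%, beside 35.6%). Kcnj10 (Kir4.1), the inward rectifier of satellite glia, was at 8.63 ± 0.81 in 2D, 7.54 ± 0.17 in 3D and 9.61 ± 0.12 in tissue. It rose by 2.07 over 3D (standard error 0.13, adjusted p = 1.85e-05) and differed by 0.97 from 2D (adjusted p = 0.0753). Of 9 satellite glia and Schwann cell genes, 1 was called higher and 4 lower in tissue against each culture. Their mean was 10.84 to 11.2 in 2D, 11.1 to 11.24 in 3D and 9.87 to 11.01 in tissue. The part of glial signal in the rise of Kcnj10 was not tested. Kcnj13 (Kir7.1), known from epithelia, rose by 2.91 against 2D (adjusted p = 0.00526) and read 8.93, 7.15, 7.14 and 9.39 in tissue beside at most 5.37 in the cultures. The EAG family genes Kcnh5 and Kcnh8 stood 1.35 and 1.41 above 2D (adjusted p = 0.00535 and 0.0154) and 1.52 and 1.23 above 3D (adjusted p = 0.00116 and 0.00259).

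Of 13 measured partner genes of potassium channels, 4 rose against 2D (30.8%, beside 24.1% of all genes called) and 7 against 3D (53.8%, beside 35.6%), and 0 fell. Amigo1, a membrane protein bound to Kv2 pores, rose by 1.80 against 2D (standard error 0.26, adjusted p = 0.00243) and 1.59 against 3D (adjusted p = 0.000344). Abcc9, the sulphonylurea receptor of vascular KATP channels, rose by 2.14 (adjusted p = 0.00320) and 1.61 (adjusted p = 0.00122). The mean level of 10 endothelial genes was also higher in tissue. It ran from 6 to 6.72 in 2D, 6.04 to 6.49 in 3D and 6.9 to 7.95 in tissue. Of the 10, 6 were called higher against 2D and 7 against 3D. Emcn (-0.53) and Flt1 (-0.05) had a lower mean in tissue than in 2D. The 10 smooth muscle and pericyte genes averaged 8.53 to 9.8 in 2D, 8.33 to 8.61 in 3D and 8.17 to 8.5 in tissue. The part of these lists in the rise of Abcc9 was not tested. Dpp6, a partner that speeds Kv4 pores, was higher by 1.37 against 3D (adjusted p = 0.00175), with 1.06 against 2D (adjusted p = 0.0632). Cntnap2, which clusters Kv1 pores beside the node of Ranvier, was higher by 1.37 against 3D (adjusted p = 0.00522), with 0.98 against 2D (adjusted p = 0.148).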

How the data were processed

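The authors hybridised total RNA to Affymetrix Mouse Genome arrays and deposited the log2 expression value of every probe set, computed by RMA in Affymetrix Expression Console (background adjustment, quantile normalization, summarization of probes). The software version is not named in these sources. Groups and replicate numbers came from the sample titles. Replicates were compared first, and 0 identical pairs of arrays were found. That replicates are biological is the labels' word, and p-values measure the spread between these arrays.

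From the deposited log2 values, 64 control probe sets were left out and 45037 tested by lmFit and eBayes of limma (version 3.58.1, under R 4.3.3), each pair of groups on its 8 arrays. P-values were adjusted by the Benjamini-Hochberg method, the threshold being 0.05. An F test covered the 12 arrays. Gene symbols came from the platform annotation, where 34945 probe sets carry 1 symbol, and promoter windows from RefSeq (GRCm38.p6). The number of arrays limits the precision. Batches were not tested. The fit code was checked on simulated arrays with independent noise and the same SD in both groups. Those lacked the deviations of whole arrays and the wider spread of tissue, so the check does not cover them.

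The member genes, marker lists, tests and alternatives were chosen with earlier results of these data known. Named genes follow a rule. Every measured member is given by role. Values on every array go to members past the threshold in both tissue comparisons or, where a role has none, to its member of smallest adjusted p. The 4 genes of smallest adjusted p stand for each further list. Members whose probe sets disagree are named with those values. Array values for Kcnd3, Kcnip4, Kcnk1, Kcnk2 and Kcnmb1 were added after their values were seen. Alternatives were 1 fit of 12 arrays, weights for arrays, a robust prior with a trend, removal of dim probe sets, cyclic loess, centring, a replicate block, other probe set rules, the methods' t-test and analysis of variance, a minimum of 2-fold, and leaving out arrays.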

Additional observations from a re-analysis of the deposited data

Results flagged for a closer look

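In 15 of 141 groups of 4 arrays, 1 array stood far from the other arrays of its group for a gene, where chance gives about 7. The same count was not made for all genes, so whether it is particular to these genes cannot be said. In 2D, replicate 4 was such an array for Kcnh1 (7.05, others 8.40 to 8.58), Kcnt1 (7.40, others 7.90 to 7.99) and Kcnmb1 (7.45, others 6.10 to 6.24). 2D replicate 3 was far off for Kcna1 (9.11, others 10.92 to 11.15) and Kcnj9 (6.55, others 5.96 to 5.97), and 2D replicate 1 for Kcnip1 (5.99, others 6.19 to 6.22).

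In 3D, replicate 1 was far off for Kcnab2 (8.73, others 7.93 to 8) and Kcnn4 (10.42, others 10.99 to 11.09), replicate 3 for Kcnj5 (5.98, others 5.70 to 5.74) and Kcnj11 (8.42, others 8.12 to 8.17), and replicate 4 for Kcnmb4 (8.80, others 8.60 to 8.63). In tissue, replicate 2 was far off for Kcnc2 (6.42, others 5.70 to 5.82), replicate 3 for Kcnj4 (6.02, others 5.55 to 5.58) and Kcnj8 (5.63, others 6.51 to 6.54), and replicate 4 for Kcnd1 (8.80, others 7.96 to 8.10).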

How the results depend on the processing

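Of the 47 genes, the number past the threshold between 3D and 2D was 0. It was 2 with array weights (Kcna4 and Kcnt1, 4.26%, beside 1.71% of all genes). The methods' t-test without adjustment gave 6 (12.8%, beside 11.6%). Without 2D replicate 4 and 3D replicate 1 it was 10 (21.3%, beside 7.46%). Leaving out each array in turn gave 0 to 1 (Kcnt1, without 2D replicate 4). In tissue against 2D it was 11 (23.4%, beside 24.1% of all genes). It was 17 with 1 fit of 12 arrays (36.2%, beside 39.4%) and 19 with array weights (40.4%, beside 34.7%). The methods' t-test with adjustment gave 7 (14.9%, beside 14.7%). Leaving out each array gave 7 to 14 (14.9% to 29.8%, beside 13% to 28.2% of all genes), with 7 without 2D replicate 1 or 2. Against 3D it was 19, and 13 to 27 under the alternatives run (27.7% to 57.4%, beside 19.9% to 47.4% of all genes). The F test's 19 became 16 by the methods' analysis of variance with adjustment. Kcnj3 reversed against 3D with its probe set of highest SD (-0.10), and Kcnk2 with tissue replicates 1 and 4 alone (0.51). The cause was not tested. Cyclic loess gave 9 higher and 4 lower against 2D (19.1% and 8.51%, beside 14.3% and 13.1% of all genes). Between all genes, centring moved the share higher among those called from 40.9% to 61.6% against 2D.

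The labels do not say that equal replicate numbers share animals or a day, and the numbers were not taken as pairs. Deviations of same-numbered arrays correlated between -0.07 and 0.41, not all over 0.1, and 2 of 4 arrays correlated best with their own number, so a partial pairing cannot be told. With the replicate block 0, 9 and 19 genes passed (3D against 2D, tissue against 2D, tissue against 3D). These were 0%, 19.1% and 40.4% of the list, beside 0%, 23.3% and 33.7% of all genes. Kcnab2 and Kcnk3 were then not called against 2D (adjusted p = 0.0638 and 0.0507) nor Kcnn2 against 3D (adjusted p = 0.0621), and Kcnh2 was called against 3D (adjusted p = 0.0151).

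Kcna4, Kcna5, Kcnd2, Kcnk5, Kcnk10 and Kcnn4 kept their calls against both cultures in all fits that left out 1 array. The call of Kcnn4 against 2D was lost with cyclic loess, with centring and with the methods' t-test with adjustment. The dimmer probe sets did not pass for Kcnk3, Kcnk5 and Kcnk10 in either tissue comparison, for Kcnc4, Kcnd3 and Kcnk1 against 3D, or for Kcnab2 and Kcnd1 against 2D, so these calls rest on the probe set used. RMA values carry no detection call, and 9 to 13 of the 47 genes had group means under 6, where folds are less certain.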
